A study of Mus musculus with 32 samples.

Results

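The 40 genes described here encode RNA polymerase I and the machinery that turns its transcript into ribosomal subunits. They were taken from a fixed list of gene symbols, chosen with earlier results of these data known. All 40 of 40 were measured, among 18194 genes in all, with 84 probe sets between them. Where a gene had several probe sets, as 30 of the 40 had, the one that varied most over the arrays of an experiment stood for the gene. The list holds 6 genes of RNA polymerase I and its initiation factors, 9 of the box C/D and H/ACA ribonucleoproteins, 10 of the small-subunit processome and pre-40S assembly, 10 of large-subunit assembly and 5 of abundant nucleolar proteins.

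Ribosome production starts in the nucleolus, where RNA polymerase I copies ribosomal DNA into a long precursor RNA. Small nucleolar ribonucleoproteins modify that precursor, the small-subunit processome and the large-subunit assembly factors cut and fold it, and ribosomal proteins are added on the way. The pathway is a large part of the cost of cell growth, and in lymphocytes it is known as a prominent target of the transcription factor Myc.

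Transcript abundance was measured on 32 Affymetrix arrays of mouse cells from 3 experiments built around Ebf1, the transcription factor that early B-cell development requires. In the first, the 230238 pre-B cell line was transduced with pMIG carrying Ebf1-Engrailed, a fusion of Ebf1 to a repressor domain (3 arrays), or with the empty pMIG vector (3 arrays), and 500000 GFP-sorted cells were used per sample. In the second, Ebf1-/- E14.5 fetal liver cells on the C57BL/6J background, grown on OP9 stromal cells, carried Ebf1-ER, an Ebf1 fusion switched on by 4-hydroxytamoxifen (0.1 µM). They were taken at 0, 6, 12 and 24 h, with 2 arrays per time and 500000 cells per sample. All 4 groups lacked the endogenous Ebf1 gene and carried the fusion. The 32 arrays include no such cells without tamoxifen at the later times and no fetal liver cells without Ebf1-ER. In the third, enlarged lymph nodes of 8 C57BL/6J mice of about 30 weeks with the genotype Ebf1+/-Pax5+/- gave 2 arrays each, and the controls were 2 arrays labelled as sorted wild-type (WT) C57BL/6J pro-B cells, with 1000000 cells per sample. The node cells were sorted as live cells, with no lineage gate in the labels, whereas the controls are labelled as sorted pro-B cells. The labels do not state whether replicates of the line and of the fetal liver cells came from separate cultures, and where they did not, the p-values reflect technical spread alone.

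The deposited values are on the log2 scale and centred, probe set by probe set, inside an experiment, so a value of 0 marks the median array of the 230238 and of the Ebf1-ER experiment. In the tumour experiment the values were centred on another constant, so 0 has no such meaning there, and no level can be read or set between experiments. A fall in RNA per cell and a fall in the share of cells that make it cannot be told apart in these bulk samples. Changes were tested with limma, and “called” below means an adjusted p under 0.05 after Benjamini-Hochberg correction across the 18194 genes. The ± after a log2 change is the standard error (SE) from limma.

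Some arrays stood apart before any comparison of these genes. In the 230238 line, the mean of the 40 genes was -0.36 in empty-vector sample 3, against 0.49 and 0.43 in empty-vector samples 1 and 2. In the tumour experiment, the mean of 11 myeloid marker genes lay between -1.01 and 1.08 in the 8 lymph nodes and at 3.90 and 4.13 in the WT pro-B arrays, and 9 of the 11 genes were called lower in the nodes (Mpo, the granulocyte myeloperoxidase, by -7.21 ± 0.20, and S100a9, a neutrophil protein, by -7.99 ± 1.46, on the log2 scale). Ebf1 itself, which pro-B cells are known to express, ran from -0.29 to 0.43 over the nodes with a median of 0.04, against -4.20 and -4.66 in the arrays labelled WT pro-B, and was 22.4-fold higher in the nodes (4.48 ± 0.18, adjusted p = 7.1e-08). The low Ebf1 and the high myeloid markers go against the label of these 2 arrays, while other B-lineage markers do not. The mean of 9 B-lineage markers, Ebf1 among them, was -0.11 and -0.23, within the range of the nodes (-0.28 to 0.34). The median of the same 9 was 0.56 and 0.27 in the WT arrays, against -0.31 to 0.21 in the nodes. Pax5 had -0.70 and -0.26 in the WT arrays, against -0.64 to 0.43 in the nodes. Of 5 erythroid markers 4 were called lower in the nodes, and of 8 stromal and endothelial markers 4 were, where 8.66% of all genes were called lower. The mean of 11 T-cell markers was 2.68 in node 279, 1.26 in node 383 and 0.82 in node 381, and between -1.05 and -0.09 in the other nodes. The part of these markers in the results below was not tested, apart from leaving out arrays as stated.

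The time course asked what happens when Ebf1 activity is switched on in cells that lack it. All 40 genes rose, within the first 6 h, and stayed above the 0 h level to 24 h. The median log2 change of the 40 against 0 h was 1.85 at 6 h, 1.98 at 12 h and 1.59 at 24 h, while the median over all 18194 genes was 0.03, 0.03 and 0.05 at the same times. All 40 were called higher and none lower at each time, where the share of all genes called higher was 18.6% at 6 h, 19.9% at 12 h and 21% at 24 h, and the share called lower was 16.4%, 19.9% and 17.8%. These 3 comparisons share the same 2 arrays of 0 h, and every one of the 40 genes had both 0 h arrays below all 6 later arrays, as 23.3% of all genes did. The 40 calls of each time held in the 4 alternatives that kept all arrays, and no change fell below 0 with any 1 array left out. The share of all genes called in these alternatives is not given here, so the 40 cannot be set against it. Time after sorting and reseeding, tamoxifen and Ebf1-ER activity cannot be told apart in this design.

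The largest rise in the polymerase group, and at 12 h of all 40, was that of Polr1b, the second-largest subunit of RNA polymerase I, which forms the active centre together with Polr1a. Its centred values were -2.62 and -2.90 at 0 h, 0.22 and 0.17 at 6 h, 0.46 and 0.52 at 12 h, and -0.17 and -0.19 at 24 h. Both 0 h arrays lay far below the other 6, and the arrays of a time differed little from each other. Against 0 h it was 7.73-fold higher at 6 h (log2 change 2.95 ± 0.11), 9.52-fold at 12 h (3.25 ± 0.11, adjusted p = 2.3e-06) and 5.98-fold at 24 h (2.58 ± 0.11). Polr1a, the largest subunit, changed by 1.64, 1.77 and 1.16 at 6, 12 and 24 h, and Polr1e, a subunit of the mobile initiation and elongation module, by 1.98, 2.07 and 1.53. Polr1c, which RNA polymerase III also uses, changed least at 6 and 12 h, by 0.62 ± 0.09 and 0.65 ± 0.09, and by 0.84 ± 0.09 at 24 h. The initiation factors moved less than Polr1b. Rrn3, the factor that links the polymerase to its promoter, changed by 0.97, 1.03 and 0.84, and Ubtf, the protein that holds ribosomal DNA in its open form, by 0.97, 0.79 and 0.99.

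Among the 9 ribonucleoprotein genes the median log2 change was 1.82 at 6 h, 1.85 at 12 h and 1.72 at 24 h. Nop56, a core protein of box C/D particles, which guide the methylation of the precursor RNA, had -2.47 and -2.36 at 0 h, 0.05 and 0.04 at 6 h, 0.15 and 0.08 at 12 h, and -0.14 and -0.04 at 24 h. It stood on a plateau from 6 h on, 5-fold above 0 h at 24 h (2.32 ± 0.09, adjusted p = 4.4e-06). The other core proteins of that particle, Nop58 and the methyltransferase Fbl, were higher by 1.46 and 1.51 at 24 h. The 4 core proteins of the H/ACA particle, which guides pseudouridylation, rose together, with 24 h changes of 1.99 for the pseudouridine synthase Dkc1, 1.81 for Nhp2, 1.72 for Gar1 and 1.15 for Nop10. Nolc1, a chaperone of both kinds of particle, was higher by 2.39 ± 0.10 at 24 h. Rrp9, the U3-specific protein, had the smallest 24 h change of the 40, at 0.68 ± 0.12.

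The 10 small-subunit genes had a median log2 change of 1.94 at 6 h, 2.03 at 12 h and 1.63 at 24 h. Rrp12, a factor of pre-40S maturation and export, had -2.78 and -2.69 at 0 h, 0.27 and 0.23 at 6 h, 0.38 at both arrays of 12 h, and -0.32 and -0.23 at 24 h. Its 6 h change of 2.98 ± 0.09 was the largest of the 40 and ranked 10 among the increases of all 18194 genes. At 24 h the U3-associated scaffold Utp20 was higher by 1.91, Heatr1 by 1.62, and the t-UTP proteins Wdr75, Wdr43 and Utp15 by 1.64, 1.41 and 0.87. The assembly factors Noc4l, Nop14, Tsr1 and Bysl were higher by 1.99, 1.24, 1.57 and 1.78.

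Among the 10 large-subunit genes, with medians of 1.64, 1.82 and 1.47 at the 3 times, Rrp1b had the largest change (2.73, 3.00 and 2.18). The members of the PeBoW complex, which processes the internal spacer of the large-subunit RNA, differed in size: Bop1 was higher by 2.09, 2.19 and 1.64, against 1.10, 1.12 and 0.86 for Pes1 and 0.98, 1.19 and 0.74 for Wdr12. The value of Bop1 is uncertain, since its other probe set changed by 0.68, 0.69 and 0.05 and was not called at 24 h. Nop2, an RNA cytosine methyltransferase, had -2.04 at both arrays of 0 h, 0.19 and 0.20 at 6 h, 0.36 and 0.30 at 12 h, and -0.36 and -0.19 at 24 h. It lay above its 0 h level on all later arrays and lower at 24 h than at 6 and 12 h. The remaining assembly factors Nop16, Rrs1, Nip7, Ddx18 and Noc3l were higher by 1.87, 1.53, 1.40, 1.24 and 0.99 at 24 h. Of the nucleolar proteins, the histone chaperone Npm1 changed by 0.87, 0.88 and 0.88, and the others by more. At 24 h the RNA helicase Ddx21 was higher by 2.31 ± 0.09, nucleolin (Ncl) by 2.12 ± 0.13, and Gnl3 and Mybbp1a by 1.88 and 1.87.

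**Figure D1:**
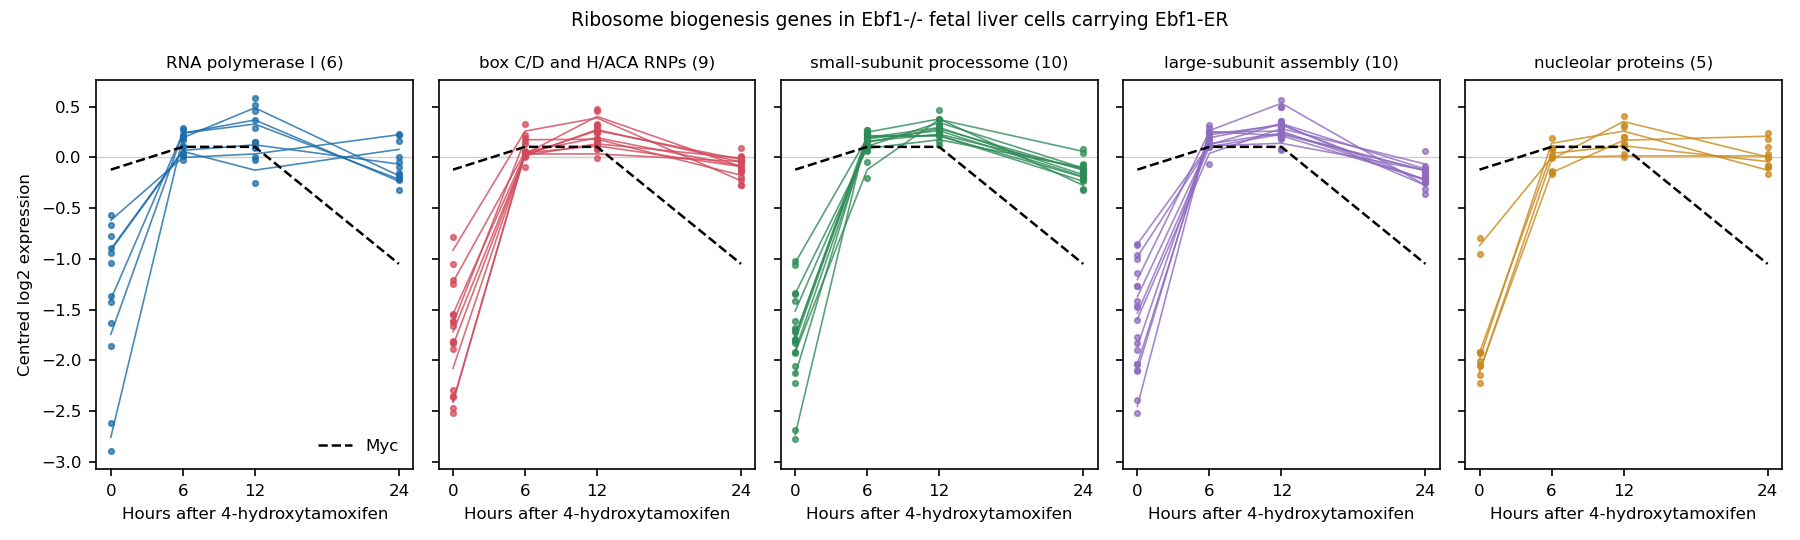
Centred log2 expression of the 40 genes in Ebf1-/- fetal liver cells carrying Ebf1-ER, by hours after 4-hydroxytamoxifen, in 5 panels by role; points are single arrays (2 per time), coloured lines join the mean of a gene and the dashed line is Myc. Every gene lies lowest at 0 h and has most of its rise by 6 h, and 36 of the 40 lie lower at 24 h than at 12 h, while Myc changes little to 12 h and lies below its 0 h level at 24 h.

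After 6 h the changes were small beside the first rise. By the mean of its arrays, 34 of the 40 genes were highest at 12 h, 2 at 6 h (Noc3l and Tsr1) and 4 at 24 h (Polr1c, Ubtf, Npm1 and Ddx21). Between 12 h and 6 h no gene of the 40 was called by limma, where the called share of all genes was 1.5% higher and 0.89% lower. At an unadjusted p under 0.05, 8 of the 40 were higher and none lower, where 6.52% of all genes were higher and 10% lower, and the median log2 change was 0.11. Noc4l had 0.28 and 0.47 at 12 h, against -0.04 and -0.20 at 6 h. Its change, at 0.50 with an adjusted p of 0.06, was called when all probe sets of a gene were averaged and when the less variable genes were left out.

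From 12 h to 24 h the direction turned: 36 of the 40 changes were below 0, with a median of -0.37 against 0.02 over all genes. Of the 40, 12 were called lower and none higher, where the called share of all genes was 1.68% lower and 2.48% higher. The largest was Rrp1b, at -0.31 and -0.24 at 24 h, against 0.57 and 0.50 at 12 h (log2 change -0.82 ± 0.09, adjusted p = 0.0072). Polr1b (-0.67), Rrp12 (-0.65), Rrp9 (-0.62), Nop2 (-0.61), Bop1 (-0.55) and Polr1e (-0.54) followed, and Nop16, Utp15, Heatr1, Wdr12 and Tsr1 made up the 12. None of the 5 nucleolar proteins was called in this comparison. At an unadjusted p under 0.05, 30 of the 40 were lower and none higher, where 8.2% of all genes were lower and 10.6% higher. The call rests on both arrays of each time: with any 1 of the 4 arrays left out none of the 40 was called, in fits that assume the lone array varies like the other groups, while the median then lay between -0.40 and -0.35. In those fits the share of all genes called lower was itself 0.055% to 0.148%.

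Against 6 h, 11 of the 40 were called lower at 24 h, where 4.39% of all genes were, and Ddx21 alone was called higher, at 0.36 (adjusted p = 0.048), where 4.92% of all genes were. Ddx21 had -0.14 and -0.16 at 6 h, 0.20 and 0.14 at 12 h, and 0.24 and 0.18 at 24 h, so that its later arrays all lay above those of 6 h. With any 1 array of the pair of times left out none of the 40 was called in either direction, and the share of all genes called was 1.11% to 1.48% lower and 2.28% to 2.62% higher. The median of the 40 was -0.24 in the fit to all arrays and lay between -0.26 and -0.24 in those fits, with 33 to 35 of the 40 below 0.

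Myc itself had another course. It had -0.21 and -0.03 at 0 h, 0.10 and 0.11 at 6 h, 0.18 and 0.03 at 12 h, and -1.04 and -1.06 at 24 h. Its change against 0 h was 0.23 ± 0.10 at 6 h (adjusted p = 0.12), 0.23 ± 0.10 at 12 h (adjusted p = 0.12) and -0.93 ± 0.10 at 24 h (adjusted p = 0.00022), and at 24 h it was 2.23-fold lower than at 12 h. At that time the 40 genes still stood between 0.68 and 2.58 above 0 h. From 12 h to 24 h their median change was below 0 as well, at -0.37. Of the 40, 12 were called lower and none higher, and 4 changes were above 0.

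Other genes of the pathway, from lists chosen with earlier results of these data known, moved largely the same way, with lower medians. The shares to read them against are the 21% of all genes called higher and the 17.8% called lower. At 24 h against 0 h, 7 of 12 further genes of RNA polymerase I and its promoter complex were called higher and none lower (median 0.47), led by Taf1d (2.71) and the shared subunit Polr2f (1.19). Of 47 further small-subunit factors 41 were higher and 1 lower (median 1.05, with Nol10 at 2.16 and the acetyltransferase Nat10 at 1.74), and of 45 further 60S factors 37 were higher and 3 lower (median 0.97, with Sdad1 at 2.01 and Ftsj3 at 1.78). Of 14 genes of the RNA exosome, which trims precursor RNA, 13 were higher and none lower, led by Exosc1 (2.19) and Dis3 (1.65). Of 9 ribonucleoprotein assembly factors 8 were higher, led by Znhit6 (1.36) and Shq1 (1.2), and of 19 genes of RNA polymerase III 10 were higher and 4 lower, led by Polr3e (1.62) and Polr3k (1.22). Of 44 ribosomal proteins 11 were called higher (25.0%, close to the share of all genes) and none lower, with a median of 0.02, and the largest were Rps9 (1.68) and Rps20 (1.41).

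Cell-cycle genes were higher too, on another course. Of 19 proliferation markers 10 were called higher and 5 lower at 6 h (median 0.60), 18 were higher at 12 h (median 1.2) and 19 at 24 h (median 1.44). From 6 to 12 h 12 of the 19 were called higher (median 0.94), where none of the 40 was, and from 12 to 24 h 4 were called higher and none lower (median 0.19), where 12 of the 40 were lower. Markers of other cell types moved as well. At 24 h against 0 h none of 6 NK-cell markers was called higher and 4 were lower (median -1.03), led by the receptor gene Klrd1 at -3.2. Of 11 T-cell markers 1 was higher and 5 lower (median -0.09, with Trat1 at -2.8), of 11 myeloid markers 2 were higher and 4 lower (median -0.18, with Itgam at -2.34), and of 8 stromal and endothelial markers, which the OP9 layer could contribute, none was higher and 4 were lower (median -0.79). Of 9 B-lineage markers 3 were higher and 2 lower (median 0.30), led by the surrogate light chain genes Igll1, at 3.59, and Vpreb1, at 1.97. The mean of the NK-cell markers was -0.34 and -0.30 at 24 h, against 0.75 and 0.88 at 0 h. That of the myeloid markers was -0.19 and -0.14 at 24 h, against 0.31 and 0.42 at 0 h, and that of the B-lineage markers 0.52 and 0.57 at 24 h, against -0.15 and -0.03 at 0 h. The part of these lists in the rise of the 40 genes was not tested.

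Promoter sequences were examined because these genes rose together and because CACGTG, the canonical E-box, is the letters to which Myc and related factors are known to bind. RefSeq windows (build GRCm38.p6) of 250 bases before to 50 after the annotated start were found for 35 of the 40 genes; Bop1, Fbl, Rrp12, Npm1 and Rrs1 had no entry. CACGTG, which reads the same on both strands, occurred in 7 of the 35 (20.0%), against 8.09% of the 27025 genes with a window. A match is a description and not a bound site, and the absence of one says only that these letters are not in this window. Shown first are the 250 bases before the start of Nop2 and of Rrn3, which hold the box upstream, and of Polr1b, the gene with the largest rise, which does not. All 3 lie on the plus strand, at chr6:125131633-125131882, chr16:13780449-13780698 and chr2:129100746-129100995. Capitals mark CACGTG, which begins at base -60 in Nop2 and at bases -215 and -48 in Rrn3, counted back from the start.
Nop2: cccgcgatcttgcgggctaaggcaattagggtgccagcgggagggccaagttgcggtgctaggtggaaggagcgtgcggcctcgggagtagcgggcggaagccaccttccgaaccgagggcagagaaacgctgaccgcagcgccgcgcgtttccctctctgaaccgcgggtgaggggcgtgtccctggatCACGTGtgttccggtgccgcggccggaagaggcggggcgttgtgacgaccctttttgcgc
Rrn3: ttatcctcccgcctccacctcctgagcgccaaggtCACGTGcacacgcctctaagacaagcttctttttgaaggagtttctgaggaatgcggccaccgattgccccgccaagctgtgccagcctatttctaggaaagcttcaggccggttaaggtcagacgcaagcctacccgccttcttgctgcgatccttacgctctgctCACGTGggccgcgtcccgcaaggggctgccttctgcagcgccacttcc
Polr1b: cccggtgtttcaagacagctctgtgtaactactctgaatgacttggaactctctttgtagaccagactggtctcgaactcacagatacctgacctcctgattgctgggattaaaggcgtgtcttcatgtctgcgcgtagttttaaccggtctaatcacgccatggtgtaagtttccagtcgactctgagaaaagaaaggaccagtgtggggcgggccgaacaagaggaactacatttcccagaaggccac
In the other 5 genes the box lies just after the start, in the first bases that are transcribed, and 30 bases around it are shown. It begins at base 3 of the transcript in Pes1, at 18 in Wdr43, at 25 in Tsr1, at 38 in Utp20 and at 41 in Mybbp1a. The windows are chr11:3963965-3963994 (plus strand), chr17:71616220-71616249 (plus), chr11:74898092-74898121 (plus), chr10:88826765-88826794 (minus) and chr11:72441347-72441376 (plus).
Pes1: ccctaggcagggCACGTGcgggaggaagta
Wdr43: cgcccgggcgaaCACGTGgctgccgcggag
Tsr1: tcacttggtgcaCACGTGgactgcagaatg
Utp20: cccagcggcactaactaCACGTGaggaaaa
Mybbp1a: aagtgactgtcttctgagccCACGTGtttg

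The comparison in the 230238 line asked what a repressive form of Ebf1 does in cells that express Ebf1. No gene of the 40 was called in either direction by limma, where the called share of all genes was 5.67% lower and 7.93% higher. At an unadjusted p under 0.05, 4 of the 40 were lower and none higher, where 12.5% of all genes were lower and 14.2% higher. The median log2 change was -0.27, against -0.02 over all genes, and 7 of the 40 changes were above 0. The empty-vector samples differed widely among themselves. Of the 40 genes, 36 had empty-vector sample 3 below both other empty-vector samples, as 41.1% of all genes did. For 31 of the 40 all 3 Ebf1-Engrailed samples lay below empty-vector samples 1 and 2, as for 23.9% of all genes. That count sets aside the control that was low in these same genes, and so follows in part from that choice.

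Nop58 shows the pattern, with 0.05, -0.05 and -0.15 in the Ebf1-Engrailed samples and 1.75, 0.94 and -0.25 in the empty-vector samples. The first 2 controls lay above all samples with Ebf1-Engrailed and the third below them, and the change of -0.86 ± 0.45 had an adjusted p of 0.28. Ncl had -0.03, 0.03 and -0.56 with Ebf1-Engrailed and 0.98, 1.00 and -0.04 with the empty vector. Its change was -0.83 ± 0.31 (adjusted p = 0.13). Nop56 and Dkc1, at -0.67 and -0.73, and the polymerase subunit Polr1a, at -0.58 ± 0.42, had the same order of samples. Npm1 had -0.29, -0.17 and -0.06 with Ebf1-Engrailed and 0.06, 0.08 and 0.16 with the empty vector, so its groups did not overlap, and its change of -0.27 ± 0.10 had an adjusted p of 0.14. Of the 40, the groups did not overlap for 3 lower and 1 higher, where 15.5% of all genes did not overlap lower and 16.5% higher.

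Samples with the same replicate number deviated together in this experiment, and with the replicate number as a block Wdr43, Ncl and Ddx21 were called lower (3 of 40, where 8.92% of all genes were called lower). With empty-vector sample 3 left out 21 of the 40 were called lower, where 7.1% of all genes were. With both samples numbered 3 left out 24 of the 40 were, where 12.5% of all genes were. Both counts leave out the control that was low in these same genes, so they are no separate evidence of a fall. In that smaller fit Nop58 changed by -1.35, Nop56 by -1.04 and Polr1e by -0.64. With Ebf1-Engrailed sample 3 left out 2 of the 40 were called lower, Wdr75 and Heatr1 (7.38% of all genes). With sample 1 or 2 of either group left out none was, where 2.39% to 3.67% of all genes were called lower. No alternative called any of the 40 higher.

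**Figure D2:**
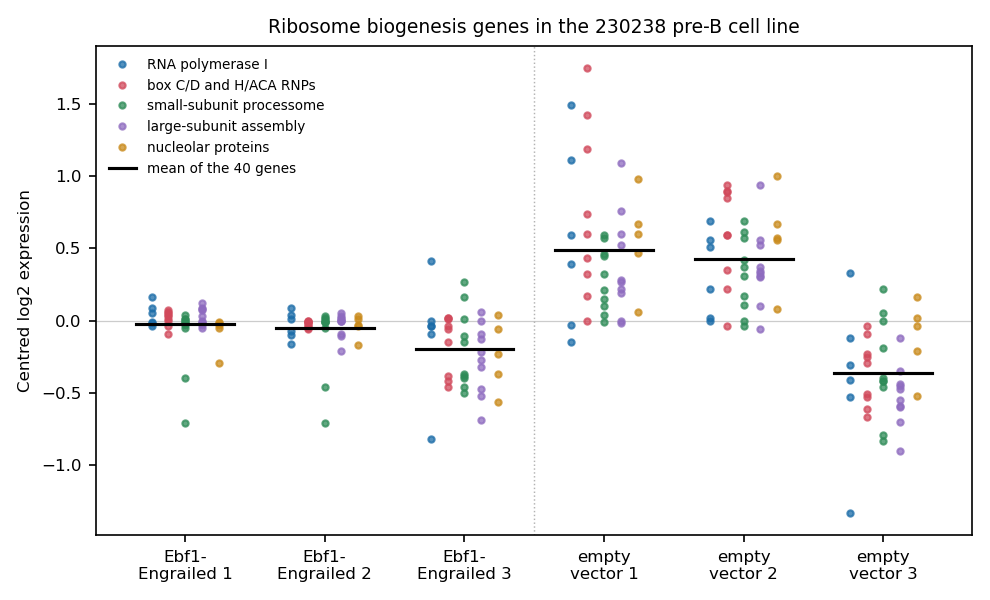
Centred log2 expression of the 40 genes in each sample of the 230238 pre-B cell line, Ebf1-Engrailed on the left and empty vector on the right; each point is a gene, coloured by role, and the black bar is the mean of the 40. The bars lie at -0.02, -0.05 and -0.20 with Ebf1-Engrailed and at 0.49, 0.43 and -0.36 with the empty vector, where sample 3 lies below the other samples.

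Proliferation markers did not share the split of the controls. Their mean was -0.79, -0.81 and -0.41 in the Ebf1-Engrailed samples and 0.68, 0.65 and 0.53 in the empty-vector samples, and 18 of 19 were called lower (median -1.33). Few other genes of the ribosome pathway were called, where 5.67% of all genes were called lower and 7.93% higher. Twistnb, a subunit of RNA polymerase I, was lower by -0.98 ± 0.10 (adjusted p = 0.0017) as 1 of 12 further polymerase I genes. In the further small-subunit list 1 of 47 was called and it was higher (Rrp7a, 0.52), and in the 60S list 1 of 45 was lower (Gnl2, -0.58). The exosome genes Exosc8 and Exosc5 were lower by -0.74 and -0.59, as 2 of 14, and Rpap3, a chaperone adaptor, by -0.57, as 1 of 9. Of 44 ribosomal proteins only Rps24 was called (-1.32), and of 19 RNA polymerase III genes none was in either direction. Myc had -0.41, -0.47 and 0.09 with Ebf1-Engrailed and 0.52, 0.54 and -0.09 with the empty vector, a change of -0.59 ± 0.22 with an adjusted p of 0.14.

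In the enlarged lymph nodes of Ebf1+/-Pax5+/- mice, 35 of the 40 genes were higher than in WT pro-B cells and none was lower, where the called share of all genes was 11.3% higher and 8.66% lower. The median log2 change was 1.00, against 0.02 over all genes, and the changes ran from -0.32 to 2.02. For 31 of the 40 all 8 nodes lay above both WT arrays, where 15.9% of all genes did. All 10 small-subunit genes and all 5 nucleolar proteins were called, 9 of 10 large-subunit genes, 7 of 9 ribonucleoprotein genes and 4 of 6 polymerase genes. The same 35 were called when all probe sets of a gene were averaged and when all 18 arrays were fitted with the node as a block, where 10% and 13.5% of all genes were called higher.

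Polr1b again had the largest change. Over the 8 nodes its lowest value was -0.74, its median 0.12 and its highest 0.55, against -1.89 and -1.96 in the WT pro-B arrays. Every node lay above both controls, and the difference was 4.05-fold (2.02 ± 0.27, adjusted p = 0.00068). Polr1e (1.29 ± 0.19), Polr1c (0.92 ± 0.14) and Rrn3 (0.76 ± 0.10, adjusted p = 0.00059) were higher as well. Polr1a, at 0.48 ± 0.29, was not called (adjusted p = 0.31), and Ubtf was the one gene of the 40 with a change below 0. Its nodes ran from -0.19 to 0.63 with a median of 0.13, against 0.53 and 0.45 in the WT arrays, a change of -0.32 ± 0.21 (adjusted p = 0.35). In the time course Ubtf had risen with the others.

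Of the small-subunit genes Tsr1, a GTPase-like factor of late pre-40S maturation, changed most. Its nodes ran from -0.84 to 0.26 with a median of 0.05, against -1.54 and -1.85 in the WT arrays, and it was 3.20-fold higher (1.68 ± 0.24, adjusted p = 0.0012). Wdr43 (1.44), Wdr75 (1.31), Rrp12 (1.31), Utp20 (1.18), Noc4l (1.15), Nop14 (1.07), Heatr1 (0.98), Utp15 (0.87) and Bysl (0.84) followed. Among the large-subunit genes the PeBoW members again differed in size: Wdr12 changed by 1.71 ± 0.28 and Pes1 by 0.90 ± 0.14, while Bop1, at 0.37 ± 0.29, was not called (adjusted p = 0.43). Bop1 and Wdr12 were read here from other probe sets than in the time course, so their order cannot be set against that one. The Bop1 and Wdr12 probe sets of the time course changed by 0.49 (not called) and 1.2 in the nodes. Other genes read from different probe sets in the 2 experiments were Polr1c, Polr1e, Fbl, Dkc1, Nolc1, Heatr1, Tsr1, Bysl, Rrs1, Ddx18, Nip7 and Ncl. The sizes of their changes cannot be set against the time course either. Noc3l was higher by 1.43 ± 0.15 with the lowest adjusted p of the 40, 0.00014, and Nop16, Rrp1b, Nip7, Ddx18, Rrs1 and Nop2 by 1.34, 1.32, 1.23, 1.07, 1.05 and 0.92.

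The ribonucleoprotein genes changed less. Nolc1 was higher by 1.5 ± 0.26, Nop56, Fbl and Dkc1 by 0.98, 0.97 and 0.96, and Nhp2, Nop58 and Gar1 by 0.85, 0.73 and 0.67. Rrp9, at 0.29 (adjusted p = 0.22), and Nop10, at 0.33 (adjusted p = 0.34), were not called. Of the nucleolar proteins Mybbp1a was higher by 1.57 ± 0.23, Gnl3 by 1.27, Ddx21 by 1.01, Npm1 by 0.98 ± 0.12 and Ncl by 0.95.

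**Figure D3:**
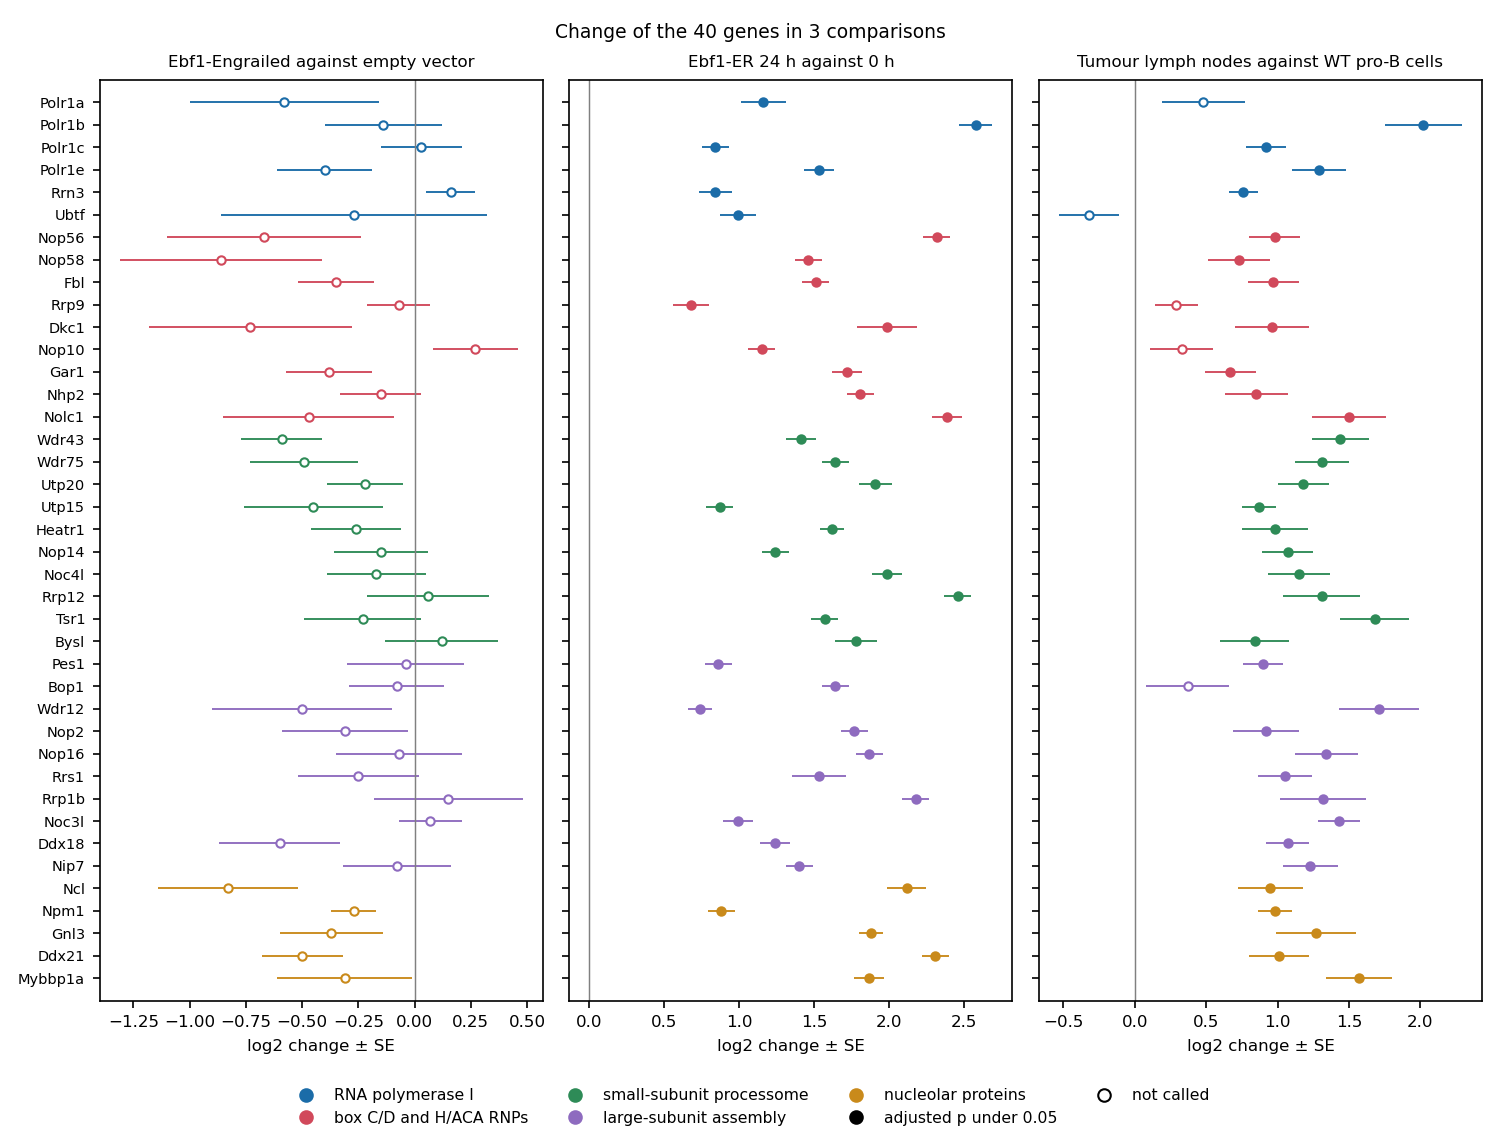
Log2 change of each of the 40 genes with limma's standard error, in Ebf1-Engrailed against empty vector, Ebf1-ER at 24 h against 0 h, and tumour lymph nodes against WT pro-B cells; filled points were called at an adjusted p under 0.05. No point is filled in the first panel, all 40 in the second and 35 in the third, and the horizontal scales differ between panels. Some genes were read from different probe sets in different panels.

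The number of calls depends on the 2 WT arrays. With WT sample 1 left out 23 of the 40 were called higher (4.73% of all genes), and with WT sample 2 left out 19 (2.58% of all genes), in fits that assume the lone WT array varies like the nodes, while leaving out any 1 node gave 33 to 36 (9.33% to 12.8% of all genes). With nodes 279, 381 and 383, which had the highest T-cell markers, left out, 25 of the 40 were called higher, where 6.64% of all genes were, in a choice made after the values were seen. In total 18 of the 40 were called in every alternative of this comparison, among them Polr1b, Polr1c, Polr1e, Rrn3, Tsr1, Noc3l, Npm1 and Mybbp1a. The share of all genes called in every alternative was not computed, so the 18 cannot be set against it. The arrays labelled WT pro-B held the high myeloid markers and the low Ebf1 given above, and how much of the difference comes from the makeup of the 2 kinds of sample was not tested.

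Further pathway genes were higher in the nodes too. The shares to read them against are the 11.3% of all genes called higher and the 8.66% called lower, with a median of 0.02 over all genes. Of 12 further polymerase I genes 8 were called higher (median 0.67), led by Taf1d (1.25) and Cd3eap (1.04), a polymerase I subunit. Of 47 further small-subunit factors 32 were higher and 1 lower (median 0.65), led by Tsr2 (1.61) and Riok2 (1.5), and of 45 further 60S factors 28 were higher (median 0.64), led by Ftsj3 (1.36) and the export adaptor Nmd3 (1.24). The exosome gave 7 of 14 (Exosc1 at 1.03 and Dis3 at 1.01), the ribonucleoprotein assembly factors 7 of 9 (Rpap3 at 0.94 and Naf1 at 0.83), and RNA polymerase III 6 of 19 higher and 1 lower (Polr3g at 1.2 and Gtf3c3 at 1.04). Of 44 ribosomal proteins 20 were higher and 1 lower (median 0.22), led by Rps20 (2.45) and Rpl22 (1.90). Of 19 proliferation markers 4 were called higher and none lower, with a median of -0.16. Myc ran from -1.25 to 0.54 over the nodes with a median of 0.08, against -1.77 and -1.89 in the WT arrays, and was 3.21-fold higher (1.68 ± 0.46, adjusted p = 0.029).

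The 8 nodes differed from each other in all 40 genes. By limma's moderated F test over their 16 arrays, which uses the spread within pairs of arrays of a node as its error, all 40 were called, where 59.7% of all genes were. The 2 arrays of a node are duplicates of 1 sample, so this error may be technical spread alone. The test therefore cannot separate a difference between nodes from one between single samples of them. The span from the lowest to the highest node was 0.98 on the log2 scale at the median of the 40, against 0.57 over all genes, and ran from 0.36 for Rrn3 to 1.39 for Rrp12. The 2 arrays of a node differed by 0.07 at the median, and by 0.51 at most.

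Node 292 stood lowest. It had the lowest value for 37 of the 40 genes, as for 18% of all genes, and its mean over the 40 was 0.59 below the mean of the 8 nodes (-0.59), with none of the 40 above that mean. For Nolc1 it had -0.87, where the next lowest node had -0.05 and the highest 0.36. For Gnl3 it had -0.87, next to -0.08 and a highest value of 0.36. For the H/ACA protein Gar1 it had -0.65, next to -0.01 and a highest value of 0.18. The other nodes lay close together in these genes, with node 292 apart from them. Ubtf and Noc3l were lowest in node 317 and Nip7 in node 279.

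The mean over the 40 of the other nodes lay between -0.05 (node 383) and 0.22 (node 381) from the mean of the 8. Node 381 had the highest value for 16 of the 40, node 317 for 10 and node 278 for 8. With node 292 left out, 32 of the 40 still differed between the remaining 7 nodes, where 57.4% of all genes did, and the median span was 0.42. With nodes 279, 381 and 383 left out 38 of the 40 differed, where 52.1% of all genes did. Even node 292 lay above both WT arrays for 31 of the 40, the exceptions being Polr1a, Ubtf, Nop58, Rrp9, Nop10, Gar1, Bysl, Bop1 and Ncl.

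Myc and the 40 genes ranked the nodes alike only in part. Myc was highest in node 381 (0.54) and node 278 (0.38), which also had the highest means of the 40 genes (0.27 and 0.23). Myc was lowest in node 317 (-1.25) and node 292 (-1.22). Node 292 was low in the 40 genes too, with none of them above the mean of the 8 nodes. Node 317, in contrast, lay above that mean for 30 of the 40 genes. Bop1 had its highest value, 0.91, and Rrp12, at 0.61, and Ddx21, at 0.55, had theirs in node 317. Proliferation markers differed between nodes too, with all 19 called and a median span of 1.29, and so did the T-cell markers, with a median span of 3.71. Node 292 had a T-cell marker mean of -0.09 and a myeloid mean of 0.03, neither of which was the lowest or highest of the nodes. The mean of the proliferation markers in node 292, -0.55, was the lowest of the 8, next to -0.49 in node 279, and its mean of the B-lineage markers, 0.34, was the highest. The part of these in its low values was not tested. Node 279 lay above the mean of the 8 nodes for 28 of the 40 genes.

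**Figure D4:**
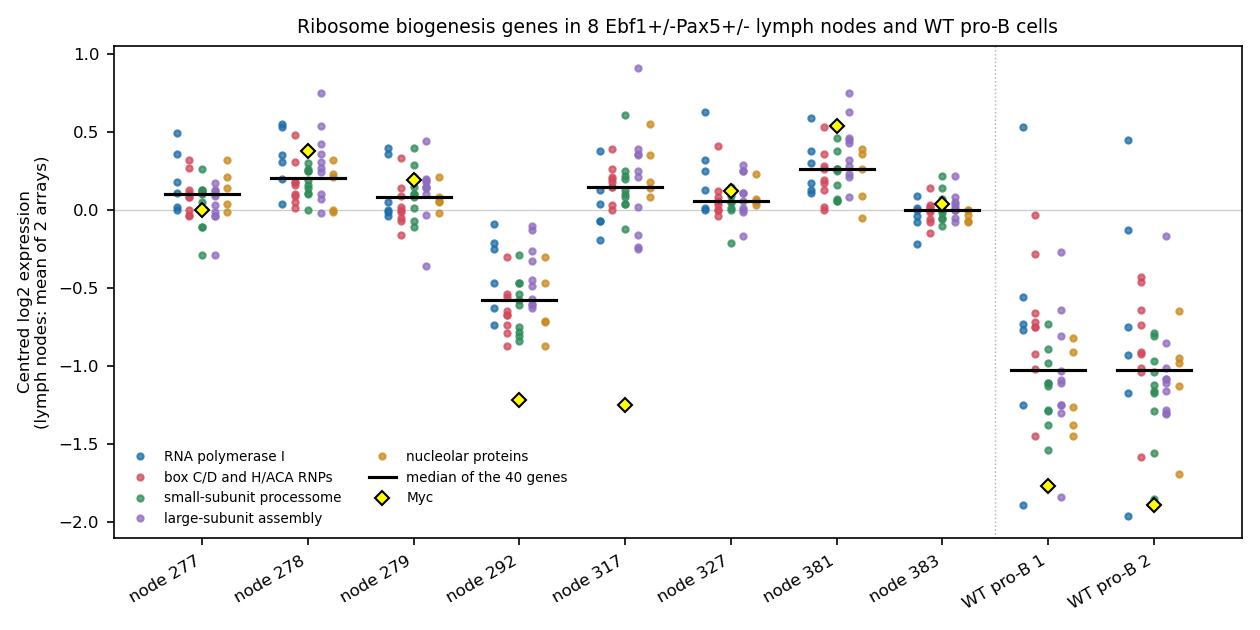
Centred log2 expression of the 40 genes in 8 Ebf1+/-Pax5+/- lymph nodes (mean of 2 arrays each) and, on the right, in 2 WT pro-B arrays; points are genes coloured by role, bars the median of the 40 and diamonds Myc. Node 292 lies below the other nodes and above most WT values, with Myc at -1.22, and node 317 combines a Myc value of -1.25 with values of the 40 genes close to those of the other nodes.

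Probe sets that were not used for the gene values mostly moved with those that were. Of the 84 probe sets of the 40 genes, tested one by one, 78 were called higher at 6 h, 81 at 12 h and 77 at 24 h against 0 h. The one that was called lower, at 24 h, was a Heatr1 probe set (-0.40). The Heatr1 probe set used for the gene in the time course was higher by 1.62, and its remaining one was not called (0.20), so the value of Heatr1 is uncertain. In the lymph nodes and in the 230238 line Heatr1 was read from a probe set that was not the one that rose in the time course. In the line, Polr1c, Polr1e, Nop56, Dkc1, Nop10, Nhp2, Nolc1, Wdr75 and Tsr1 were also read from other probe sets than in the time course. So were Bysl, Pes1, Wdr12, Rrp1b, Noc3l, Ddx18, Nip7, Npm1 and Ddx21. The sizes of their changes in the line cannot be set against the time course. In the lymph nodes 64 of the 84 were called higher and none lower, and in the 230238 line none was called in either direction. The share of all probe sets called in these fits was not computed. In the fits by gene, 18.6%, 19.9% and 21% of all genes were called higher at 6, 12 and 24 h. In the lymph nodes 11.3% were called higher, and in the line 5.67% were called lower and 7.93% higher.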

How the data were processed

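The authors deposited 1 matrix of log2 values for 45101 probe sets on 32 arrays, for which the submitters' processing notes name RMA. No source used here gives the base of the logarithm, and 2 was assumed. The median of all 45101 probe sets was 0, within 1e-05, over the arrays of the 230238 and of the Ebf1-ER experiment. In the tumour experiment this held for 10846 (24.0%), so those values had been centred on another constant. Levels and filters on low values could therefore not be used, and the number of arrays limits the precision. No 2 arrays were identical (smallest median absolute difference 0.0911).

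The platform annotation gave a single gene symbol for 34958 probe sets (34754 of them matched to RefSeq's gene list), several for 932 and none for 9211, and only the first kind was used. This gave 18194 genes. Groups came from the sample labels. Each experiment was fitted on its own by limma 3.58.1 (lmFit, eBayes) under R 4.3.3, with tables read through the data.table package (1.17.8), with two-sided p-values adjusted over all genes. The 2 arrays of a lymph node were averaged, and the nodes were compared with a moderated F test over 16 arrays. The fits were tested on simulated data. Tables and figures used Python 3.11.15 with pandas 2.3.3 and matplotlib 3.10.9.

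Taking the probe set of largest variance leans towards large changes, and averaging a gene's probe sets was therefore an alternative, as were only the genes of above-median variance, array medians subtracted, the replicate number as a block and leaving out arrays. The numbers pair the samples of the 230238 line: deviations from the group means of same-numbered samples correlated at 0.29, 0.36 and 0.44, a pairing read from the data, as the labels give only numbers. The members and the gene lists were chosen with earlier results of these data known. Named beside the 40 were Myc and, per pathway list, at most the 2 called genes with the largest change in each of 3 main comparisons. Marker genes were named where a result turned on them.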

Additional observations from a re-analysis of the deposited data

Results flagged for a closer look

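In 21 of the 40 genes the value of node 292 stood apart from the other 7 nodes: the gap to its nearest neighbour, divided by the span of the 8 nodes, was above Dixon's 95% critical value for 8 samples. Of all 18194 genes, 1.65% had node 292 apart at the low end in this way. Chance flags about 1 in 20 groups tested this way, and the genes are not independent, since all share the 2 arrays of that node. The centred log2 values of node 292 were -0.74 for Polr1b, -0.54 for Nop56, -0.74 for Nop58, -0.67 for Fbl, -0.79 for Nop10, -0.65 for Gar1, -0.67 for Nhp2 and -0.87 for Nolc1. They were -0.61 for Wdr43, -0.58 for Wdr75, -0.75 for Noc4l, -0.84 for Tsr1, -0.81 for Bysl, -0.60 for Nop2, -0.63 for Nop16, -0.57 for Rrs1 and -0.49 for Ddx18. Of the nucleolar proteins Ncl had -0.71, Npm1 -0.30, Gnl3 -0.87 and Mybbp1a -0.72. The share of the span taken by the gap was largest for Gar1, at 0.772.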

How the results depend on the processing

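No result changed direction under any alternative with a call. The 40 increases against 0 h at each time were called in the 4 settings that kept all arrays, with the share of all genes not given here. The same 35 genes of the lymph nodes were called in their 4 settings that kept all arrays, where 10% to 18.4% of the genes tested were called higher. In the 230238 line the count of genes called lower was 3 with the replicate block (8.92% of all genes) and 24 without the samples numbered 3 (12.5%). It ran from 0 to 21 when 1 sample was left out (2.39% to 7.38%). At 24 h against 12 h the count called lower was 22 with the mean of all probe sets (2.17% of all genes), 20 over the genes of above-median variance (5.23%) and 5 with the replicate block (0.967%), and 0 in each fit without 1 array. At 24 h against 6 h it was 7 with the replicate block (3.15%) and 0 without 1 array, while no gene (0) was called higher with averaged probe sets, with the replicate block and in each fit without 1 array. Same-numbered Ebf1-ER arrays did not deviate together (correlations of -0.25 to 0.15), so their block pairs only by a number. At 12 h against 6 h, 1 gene was called higher with the mean of all probe sets (1.92%) and over the genes of above-median variance (3.72%). In the lymph nodes the count ran from 19 to 36 when 1 sample was left out, lowest without a WT array. Fits without 1 array have fewer residual degrees of freedom. The replicate block kept all 40 differences among the nodes, where 63.2% of all genes were called. The centred values give no signal over background.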
